A study of Homo sapiens with 10 samples.

Results

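The baseline transcriptomes of 2 human cell lines were compared under the solvent DMSO. HT29 is an established colorectal cancer line, and t-hESC is labelled as transformed pluripotent stem cells. The 4 libraries, HT29 DMSO 1 and 2 and t-hESC DMSO 1 and 2, were taken by their titles from 10 libraries of total RNA, and all 60651 gene rows of the count table were read. Of these genes, 22495 passed a minimum count and were tested. The other 6 libraries hold both lines with VXN at 10 µM and t-hESC with BIX at 1 µM. VXN and BIX are the labels' names for the compounds and are not expanded there. The treatment field gives 48 hours of DMSO for each sample, so groups came from the titles. No added allele or transgene is named for either line, and the way t-hESC was transformed is not stated in these sources. Each group is 2 biological replicates by the series' design. The p-values rest on the spread between replicates over all 10 libraries, in large part shared across genes. They do not measure the spread of these 4 libraries alone.

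Pluripotent stem cells are held in their state by a network of transcription factors around OCT4 (POU5F1), SOX2 and NANOG, which work with RNA-binding proteins such as LIN28A and the de novo DNA methyltransferase DNMT3B. Intestinal epithelium is specified by other factors, among them HNF4A, the CDX homeobox proteins, GATA6 and KLF5. These drive genes of the brush border, of mucus secretion and of cell junctions. Position along the body axis is recorded by the HOX genes, which are silent in pluripotent cells and on in the gut.

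Total gene counts ran from 18095537 to 24475240 per library. A count of 0 over the 2 libraries of a group allows up to 3 counts over those libraries together, and this covers counting error only. Mitochondrial mRNA made up 2.19% and 2.17% of counts in the HT29 libraries and 1.45% and 1.46% in the t-hESC libraries. The log2 values of replicates correlated at 0.998 in HT29 and 0.997 in t-hESC, and libraries of different lines at 0.738 to 0.741. Replicates differed by little more than counting noise, with a chi-square per degree of freedom of 1.31 in HT29 and 1.35 in t-hESC and a common biological coefficient of variation of 0.0207 in the fit, and the small p-values rest on that narrow spread. Levels are in counts scaled to a library of 1000000 (CPM), with libraries 1 and 2 in that order, and differences are log2 HT29 minus t-hESC with the standard error of the fit, so a negative difference means a higher level in t-hESC. In bulk RNA, fewer cells of a type and less RNA per cell cannot be told apart.

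The labels could be set against fixed marker genes. The 10 pluripotency markers summed to 14.8 and 13.4 CPM in HT29 and to 5764 and 5672 CPM in t-hESC, where 9 of 10 reached 1 CPM. ZFP42, a marker that many embryonic stem cell lines express, was the exception, at 0.220 and 0 CPM in t-hESC. The 12 colon epithelial markers summed to 10368 and 10409 CPM in HT29, with 10 of 12 at 1 CPM or more, and to 775 and 782 CPM in t-hESC, where KRT8, KRT18 and EPCAM gave most of the sum. CDX1 and CDH17 were the low ones in HT29. Markers of other cells were lower. The 8 fibroblast markers summed to 4.40 and 3.50 CPM in HT29 and 96.2 and 92.4 CPM in t-hESC, and the 5 neural ones to 1.65 and 1.19 against 117 and 109 CPM. The 4 endothelial markers summed to at most 6.68 CPM and the 5 blood markers to at most 1.66 CPM in any library, and all 4 trophoblast markers had 0 counts in t-hESC.

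Most genes differed between the lines. edgeR's quasi-likelihood test with Benjamini-Hochberg adjustment at 0.05 called 18996 of 22495 genes (84.4%), of which 8741 (38.9%) were higher in HT29 and 10255 (45.6%) higher in t-hESC. A call alone therefore says little about a gene, and a second rule asked for at least a 4-fold difference as well. It held for 7479 genes (33.2%), with 2740 (12.2%) higher in HT29 and 4739 (21.1%) higher in t-hESC. The skew was present in protein-coding genes, where 1700 (10.9%) were 4-fold higher in HT29 and 3313 (21.2%) in t-hESC, and in long non-coding RNAs, where the counts were 719 (15.4%) and 1110 (23.7%). At a log2 difference of 5 or more, 953 genes (4.24%) were higher in HT29 and 2801 (12.5%) in t-hESC. The 2 libraries of one line did not overlap those of the other for 20631 genes (91.7%). The median difference over all tested genes was -0.12. A gene silent in one line passes the minimum count through the other, so members of a list that were tested are not all members, and their counts describe the lists without testing them. The shares over all tested genes given here are the background for those counts.

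HT29 transcripts were read more often in one t-hESC library than in the other. Over 95 genes at 100 CPM or more in HT29 and 32-fold or more higher there, the first t-hESC library under DMSO held a median of 0.299% of the HT29 level and the second held 0.360%, and 74 of the 95 were higher in the second. Without t-hESC DMSO 2, the second, the log2 difference of LYZ was 12.52 and that of GPX2 11.70, beside 11.37 and 10.54 with it. The part of these reads in the differences was not tested.

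**Figure D1:**
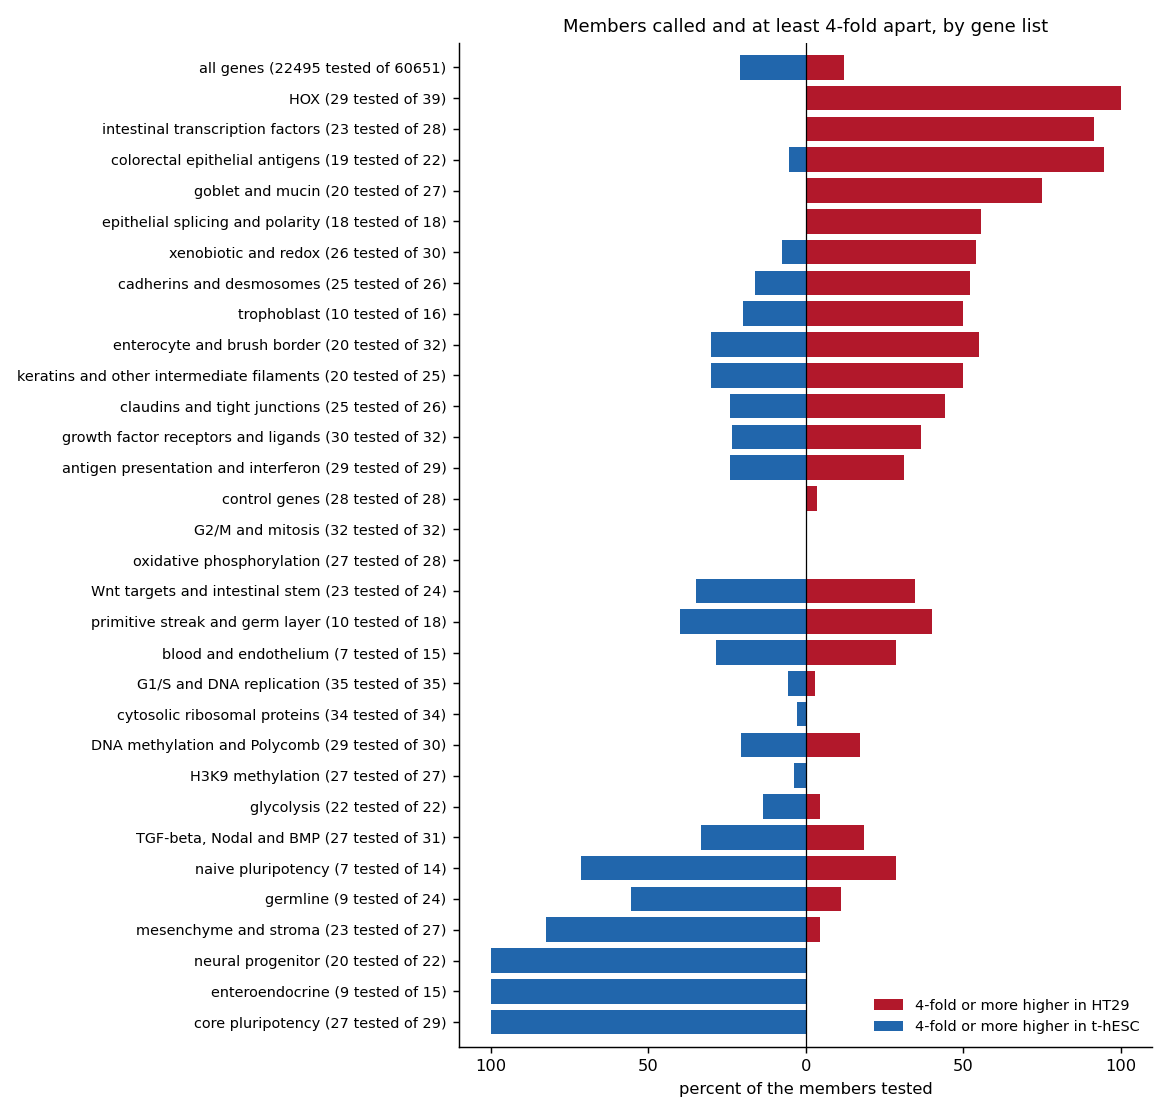
Each bar is the percent of the tested members of a gene list that were called and at least 4-fold higher in HT29 (right, red) or t-hESC (left, blue), with the members tested and listed in brackets. The list of p53 targets is not drawn. The HOX, intestinal factor and antigen lists lie to the right, the pluripotency, enteroendocrine and neural lists to the left, and the mitosis and oxidative phosphorylation lists have no bar, beside 12.2% and 21.1% over all genes at the top.

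The pluripotency network was on in t-hESC and mostly near 0 in HT29. Of 29 core pluripotency genes 27 were tested, and all 27 of those were 4-fold or more higher in t-hESC, with a median difference of -10.12, or -8.39 with genes at 0 in HT29 set to their bound. POU5F1, which encodes OCT4, was at 2.02 and 1.45 CPM in HT29 and 1701 and 1672 CPM in t-hESC (-9.92 ± 0.063, edgeR adjusted p = 1.2e-77). SOX2, its partner on DNA, was at 0.0823 and 0.213 CPM in HT29 and 281 and 269 CPM in t-hESC (-10.81 ± 0.11). NANOG, the third core factor, was at 0.0412 and 0.0427 CPM in HT29 and 53.2 and 51.1 CPM in t-hESC, a ratio of 1242-fold with a counting interval of 343 to 10263. All 3 were separated without overlap, as were 91.7% of all tested genes, and NANOG was read from 2 counts in the HT29 group. POU5F1 and NANOG have near-identical copies elsewhere in the genome, and the handling of shared reads is not stated in these sources.

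RNA-binding and chromatin members showed the same separation. LIN28A, which blocks maturation of let-7 microRNAs, was at 0.0412 and 0 CPM in HT29 and 1055 and 1047 CPM in t-hESC, and its relative LIN28B was at 0 and 0.0427 CPM and 94.6 and 91.1 CPM. TRIM71, a LIN-41 family RNA-binding protein, had 0 counts in HT29 and 200.4 and 199.6 CPM in t-hESC, at least 3182-fold higher. L1TD1, an RNA-binding protein of the embryonic stem cell state, was at 0 and 0.171 CPM in HT29 and 577 and 552 CPM in t-hESC. DPPA4, a chromatin protein of early embryos, was at 0.0823 and 0.128 CPM in HT29 and 807 and 789.9 CPM in t-hESC. DNMT3B, which sets new DNA methylation, was also detected in HT29, at 9.22 and 7.68 CPM against 868 and 876 CPM (-6.69 ± 0.051). PODXL, a cell-surface sialomucin, had the smallest difference among the tested members, at 247 and 245 CPM in HT29 and 1097 and 1102 CPM in t-hESC (-2.16 ± 0.031).

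Not every gene of the pluripotent state was high in t-hESC. FGF4, a target of OCT4 and SOX2, was at 0.0549 and 0.0941 CPM in t-hESC and at 0 in HT29. The Nodal pathway genes were low, with NODAL itself at 2.36 and 3.01 CPM, LEFTY1 at 2.47 and 2.54 CPM and LEFTY2 at 1.70 and 1.13 CPM in t-hESC. TDGF1, the Nodal co-receptor, was not, at 2.06 and 2.22 CPM in HT29 and 275 and 269 CPM in t-hESC (-6.99 ± 0.071). Of 14 genes of the naive state 7 were tested, and the 5 higher in t-hESC were all under 10 CPM there, led by SUSD2 at 7.19 and 7.20 CPM and ESRRB at 4.67 and 4.66 CPM. KLF4 and TBX3 went the other way. KLF4, a zinc finger factor of gut epithelium as well as of naive cells, was at 17.2 and 16.0 CPM in HT29 and 1.54 and 1.69 CPM in t-hESC (3.35 ± 0.14).

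**Figure D2:**
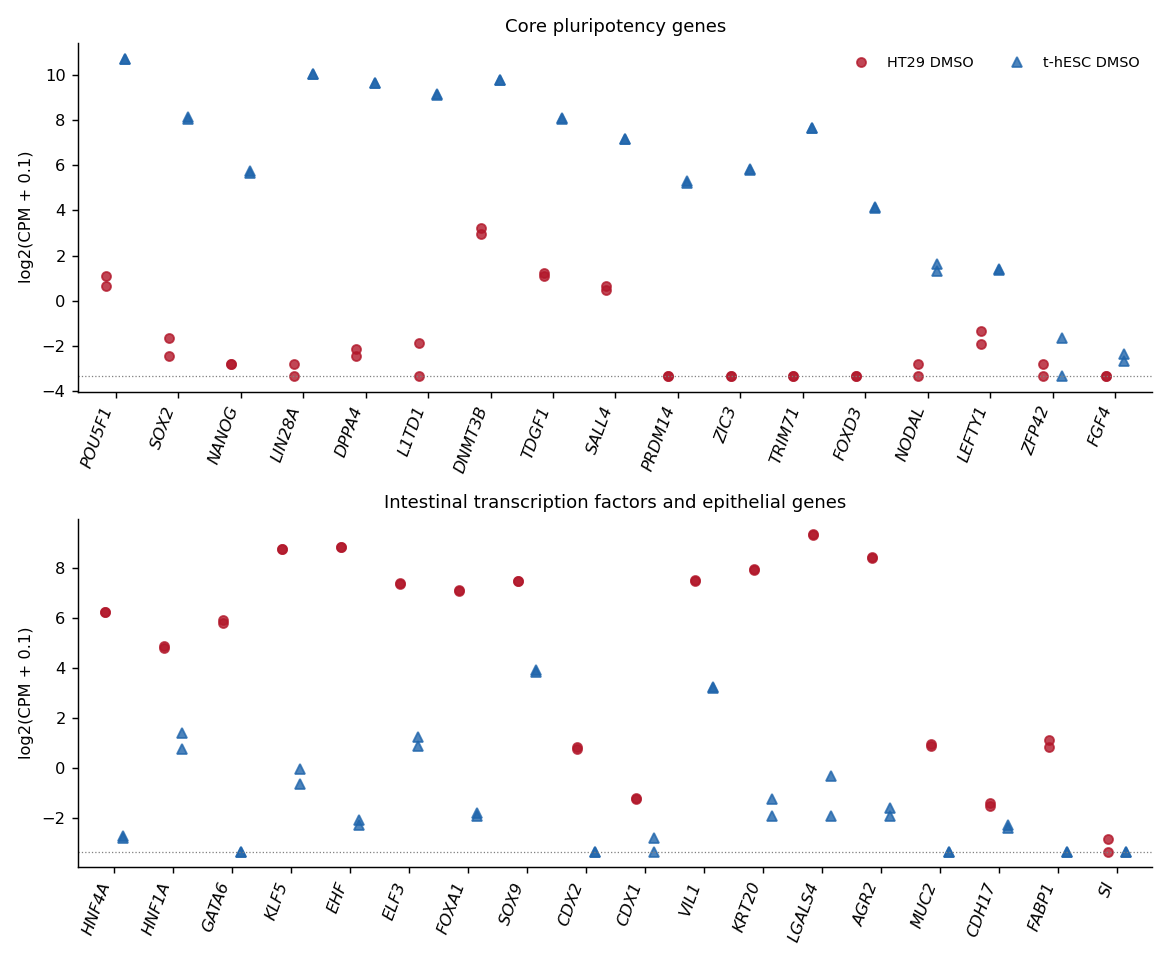
Each point is 1 DMSO library of HT29 (red circles) or t-hESC (blue triangles), on the scale log2 of CPM plus 0.1, with the dotted line at 0 counts. SOX2, NANOG and LIN28A are near the dotted line in HT29, where POU5F1 is at 1.45 and 2.02 CPM, and all 4 are high in t-hESC, ZFP42 and FGF4 are low in both, and HNF4A, GATA6, KLF5 and KRT20 are high in HT29, where CDX2 is near 1.67 CPM.

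Neural and mesenchymal genes were also higher in t-hESC. Of 22 neural progenitor genes 20 were tested and all 20 of those were 4-fold or more higher in t-hESC, with a median of -8.76 (-7.02 with bounds). SOX11 and SOX3, relatives of SOX2, had 0 counts in HT29 and were at 89.7 and 86.6 CPM and at 43.5 and 42.3 CPM in t-hESC, at least 1401-fold and 682-fold higher. STMN2, a microtubule regulator of neurons, was at 104 and 96.6 CPM in t-hESC and 0.0412 and 0 CPM in HT29. DCX, a microtubule protein of young neurons, was at 5.27 and 4.38 CPM and PAX6, a factor of neural progenitors, at 6.15 and 6.21 CPM in t-hESC. Of 27 mesenchymal and stromal genes 23 were tested, 19 were 4-fold or more higher in t-hESC and 1 in HT29, and the median was -7.27 (-5.35 with bounds). SPARC, a matrix protein, was at 0.0823 and 0.0427 CPM in HT29 and 259 and 264 CPM in t-hESC. THY1, a surface protein of stem cells and fibroblasts, was at 0.0823 and 0.0853 CPM in HT29 and 585 and 588 CPM in t-hESC (-12.67 ± 0.10). The 8 fibroblast markers given above summed to 96.2 and 92.4 CPM in t-hESC, and 4 of them reached 1 CPM there. Low ones in t-hESC were COL3A1 at 0.494 and 0.188 CPM, PDGFRA at 1.21 and 0.80 CPM and DCN at 0 and 0.0471 CPM. Primitive streak markers summed to 2.64 and 2.35 CPM in t-hESC.

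Genes used as enteroendocrine markers were in the pluripotent line and not in the colon line. Of 15 such genes 9 were tested, and all 9 of those were 4-fold or more higher in t-hESC. CHGA, chromogranin A of secretory granules, was at 0.0823 and 0 CPM in HT29 and 129 and 129 CPM in t-hESC, a ratio of 3083-fold with a counting interval of 853 to 25468. CPE, a peptide-processing enzyme, was at 0.0823 and 0.0427 CPM in HT29 and 51.6 and 54.1 CPM in t-hESC. The hormone genes of that lineage were not present, with GCG at 0 in all 4 libraries and SST at 0.11 and 0.0471 CPM in t-hESC. NEUROG3, the factor that specifies enteroendocrine cells, was at 0.494 and 0.384 CPM in HT29 and 0.0549 and 0.141 CPM in t-hESC and was not tested.

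In HT29 the intestinal transcription factors were on. Of 28 such genes 23 were tested, 21 were 4-fold or more higher in HT29 and none 4-fold higher in t-hESC, with a median of 6.60 (6.35 with bounds). HNF4A, a nuclear receptor of gut and liver, was at 76.0 and 75.3 CPM in HT29 and 0.0549 and 0.0471 CPM in t-hESC, a ratio of 1493-fold with a counting interval of 413 to 12332. KLF5, a zinc finger factor of crypt cells, was at 433 and 442 CPM in HT29 and 0.549 and 0.894 CPM in t-hESC (9.20 ± 0.084, edgeR adjusted p = 1.3e-69). EHF, an epithelial ETS factor, was at 463 and 464 CPM in HT29 and 0.11 and 0.141 CPM in t-hESC (11.77 ± 0.099). The forkhead factor FOXA1 was at 137 and 139 CPM in HT29 and 0.165 and 0.188 CPM in t-hESC (9.55 ± 0.13). GATA6 had 0 counts in t-hESC and 60.9 and 56.6 CPM in HT29, at least 773-fold higher. None of these 5 overlapped between the lines, which held for 91.7% of all tested genes.

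The CDX genes, by contrast, were low in HT29. CDX2, the homeobox factor that specifies intestine, was at 1.73 and 1.62 CPM in HT29 and 0 in t-hESC, at least 22.0-fold higher. CDX1 was at 0.329 and 0.341 CPM in HT29 and GATA4 had 0 counts in all 4 libraries. FOXA3, a forkhead factor, had a higher level in t-hESC, at 15 and 15.9 CPM against 19.3 and 19.6 CPM (-0.33 ± 0.081). Factors of the secretory lineages were present in HT29. SPDEF, which matures goblet cells, was at 25.6 and 23.2 CPM in HT29 and 0.11 and 0.188 CPM in t-hESC (7.27 ± 0.21). ATOH1, which starts the secretory programme, was at 3.62 and 3.71 CPM in HT29 and 0.220 and 0.0471 CPM in t-hESC (4.79 ± 0.39).

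Surface and secreted products of colorectal epithelium separated the lines as widely. Of 22 colorectal epithelial antigens 19 were tested, 18 were 4-fold or more higher in HT29 and 1 in t-hESC, with a median of 7.92 (7.27 with bounds). LYZ, the lysozyme that Paneth cells secrete, was at 2973 and 2979 CPM in HT29 and 0.494 and 1.65 CPM in t-hESC (11.37 ± 0.094), the highest level among the genes that were 32-fold or more higher in HT29. LGALS4, a gut galectin, was at 653 and 636 CPM in HT29 and 0.165 and 0.706 CPM in t-hESC (10.44 ± 0.086). TSPAN8, a tetraspanin, was at 582 and 582 CPM in HT29 and 0 and 0.188 CPM in t-hESC (12.40 ± 0.10). Among 20 tested goblet and mucin genes 15 were 4-fold or more higher in HT29, and the median was 7.46 (3.89 with bounds). AGR2, a disulphide isomerase that folds mucins, was at 346 and 341 CPM in HT29 and 0.165 and 0.235 CPM in t-hESC (10.68 ± 0.10). MUC5AC, a gel-forming mucin of stomach, was at 75.4 and 77.0 CPM in HT29, and MUC2, the gel-forming mucin of colon, at 1.85 and 1.75 CPM. MUC13, a membrane mucin, was at 84.8 and 83.1 CPM in HT29 and 0 and 0.141 CPM in t-hESC, a ratio of 1105-fold with a counting interval of 378 to 5362.

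The absorptive programme of HT29 was incomplete at this depth. Of 32 enterocyte and brush border genes 20 were tested, 11 were 4-fold or more higher in HT29 and 6 in t-hESC. The structural members were high in HT29. VIL1, the villin of microvilli, was at 181 and 184 CPM in HT29 and 9.22 and 9.50 CPM in t-hESC (4.28 ± 0.062). KRT20, the keratin of differentiated gut cells, was at 247 and 252 CPM in HT29 and 0.165 and 0.329 CPM in t-hESC (9.91 ± 0.11). EPS8L3, an actin regulator of the brush border, was at 70.9 and 69.2 CPM in HT29 and 0 and 0.0471 CPM in t-hESC. Several digestive and transport genes were near 0 in HT29, with SI (sucrase-isomaltase) at 0.0412 and 0 CPM, FABP2 and SLC26A3 at 0, and CDH17 at 0.288 and 0.256 CPM, while the sodium-glucose transporter gene SLC5A1 was at 22.8 and 21.2 CPM. The 6 members that were 4-fold higher in t-hESC were each under 10 CPM there, led by ESPN, an actin-bundling protein, at 1.77 and 1.92 CPM in HT29 and 8.29 and 8.80 CPM in t-hESC (-2.21 ± 0.17). FABP1, a fatty acid binding protein, was at 1.69 and 2.09 CPM in HT29 and 0 in t-hESC.

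Promoter windows of 4 genes that mark either line are shown so that the sequence can be read beside these values. RefSeq gives them on GRCh38.p14 as 250 bases before to 50 after the gene start, and each is printed 5′ to 3′ on the gene's strand. Capitals mark short motifs found by a search of these letters: GTTAAT, the HNF1 site's repeated part; CAAAGTCCA for HNF4; TTTATG for CDX; ATGCAAAT, the octamer that OCT4 reads; CATTGT for SOX; and TATAAA, the TATA box. All were searched on both strands except TATAAA, which was searched on the gene's strand.
KRT20: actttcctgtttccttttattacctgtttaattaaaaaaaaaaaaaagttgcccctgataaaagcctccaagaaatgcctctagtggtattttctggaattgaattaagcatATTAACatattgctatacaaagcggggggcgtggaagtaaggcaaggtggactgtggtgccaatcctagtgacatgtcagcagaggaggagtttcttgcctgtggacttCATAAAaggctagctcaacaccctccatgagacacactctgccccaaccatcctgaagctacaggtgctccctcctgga
MUC13: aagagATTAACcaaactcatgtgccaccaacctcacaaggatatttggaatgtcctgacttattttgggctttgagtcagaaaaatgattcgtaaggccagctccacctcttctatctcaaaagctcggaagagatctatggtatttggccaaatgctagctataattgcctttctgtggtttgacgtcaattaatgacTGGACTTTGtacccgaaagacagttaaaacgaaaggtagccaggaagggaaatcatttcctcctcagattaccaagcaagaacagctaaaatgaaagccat
NANOG: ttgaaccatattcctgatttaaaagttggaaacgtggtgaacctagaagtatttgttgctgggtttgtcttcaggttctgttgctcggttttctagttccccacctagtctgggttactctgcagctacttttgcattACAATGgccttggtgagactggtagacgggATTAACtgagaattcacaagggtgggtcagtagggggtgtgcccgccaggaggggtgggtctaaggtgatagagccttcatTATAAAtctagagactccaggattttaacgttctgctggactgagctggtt
SFRP2: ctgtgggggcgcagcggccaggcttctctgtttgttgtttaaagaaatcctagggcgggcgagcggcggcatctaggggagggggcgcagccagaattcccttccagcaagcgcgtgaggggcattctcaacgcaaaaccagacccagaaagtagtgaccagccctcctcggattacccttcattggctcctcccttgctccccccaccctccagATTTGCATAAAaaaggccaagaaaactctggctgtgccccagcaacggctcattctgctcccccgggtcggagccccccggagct
KRT20 (chr17:40885193-40885492, minus strand) holds GTTAAT and TTTATG, each on the opposite strand. MUC13 (chr3:124934702-124935001, minus strand) holds GTTAAT and CAAAGTCCA, also on the opposite strand. NANOG (chr12:7789152-7789451, plus strand) holds CATTGT and GTTAAT on the opposite strand and TATAAA on its own. SFRP2 (chr4:153789034-153789333, minus strand) holds the octamer and TTTATG on the opposite strand, which overlap and appear as 1 run of capitals. Over all 27305 symbols with a promoter window, GTTAAT was in 8.27%, CAAAGTCCA in 0.472%, TTTATG in 12.9%, the octamer in 2.19%, CATTGT in 13.0% and TATAAA in 8.99%. Windows of other named genes, among them LGALS4, EPS8L3, DNMT3B and DPPA4, held none of these motifs. The 4 shown therefore do not stand for all genes that mark a line. A match is a description of letters and not a binding site. The planned comparison of motif shares between gene sets was void, since only 53.2% of the genes 4-fold higher in HT29 and 58.6% of those 4-fold higher in t-hESC had a window.

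HOX genes were on in HT29 and near 0 in t-hESC. Of 39 HOX genes 29 were tested, and all 29 of those were 4-fold or more higher in HT29, with a median of 9.90 (7.73 with bounds). Summed over the list, HT29 held 1066 CPM and t-hESC 0.674 CPM. The A, B and C clusters were on in HT29. HOXB9, a gene of posterior segments, was at 339 and 317 CPM in HT29 and 0 and 0.188 CPM in t-hESC (11.57 ± 0.13). HOXA10 was at 105 and 103 CPM in HT29 and 0 and 0.0941 CPM in t-hESC, and HOXB7 was at 57.1 and 54.9 CPM in HT29 and 0 in t-hESC, at least 738-fold higher. HOXC4 led its cluster, at 24.3 and 24.4 CPM in HT29 and 0 in t-hESC. The D cluster was silent in both lines apart from its last gene, HOXD13, at 0.659 and 0.725 CPM in HT29 and 0 in t-hESC, while the other 8 D genes had at most 1 count in any library.

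The lines used different claudins, the proteins that set the permeability of tight junctions. Of 26 claudin and tight junction genes 25 were tested, 11 were 4-fold or more higher in HT29 and 6 in t-hESC, and the median was 1.26. For all tested genes these shares were 12.2% and 21.1%, and the t-hESC share of this list was near the latter. CLDN2, which forms a cation pore, was at 141 and 136 CPM in HT29 and 0 and 0.0471 CPM in t-hESC, a ratio of 5469.5-fold with a counting interval of 981 to 216067. CLDN4, a sealing claudin, was at 277 and 271 CPM in HT29 and 1.81 and 1.79 CPM in t-hESC (7.25 ± 0.077). CLDN1 was at 55.1 and 55.9 CPM and 2.69 and 2.82 CPM (4.33 ± 0.097), and CLDN7 at 139 and 138 CPM and 7.74 and 9.46 CPM (4.0 ± 0.064), again higher in HT29. In t-hESC the leading claudin was CLDN6, known from embryonic epithelium, at 0.206 and 0.213 CPM in HT29 and 471 and 469 CPM in t-hESC (-11.09 ± 0.095, edgeR adjusted p = 2.9e-71). CLDN10 had 0 counts in HT29 and 32.5 and 35.7 CPM in t-hESC, at least 545-fold higher, and CLDN11 was at 0.247 and 0.128 CPM and 21.9 and 22.4 CPM (-6.83 ± 0.20). The scaffold genes differed less, with TJP1 (ZO-1) at 216 and 217 CPM in HT29 and 103 and 101 CPM in t-hESC (1.08 ± 0.037). The level of F11R, a junctional adhesion molecule, was close, at 189 and 192 CPM and 179 and 181 CPM (0.08 ± 0.034), with the 95% interval of the difference inside 0.32 log2 units of 0, and genes that met this are called close here.

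**Figure D3:**
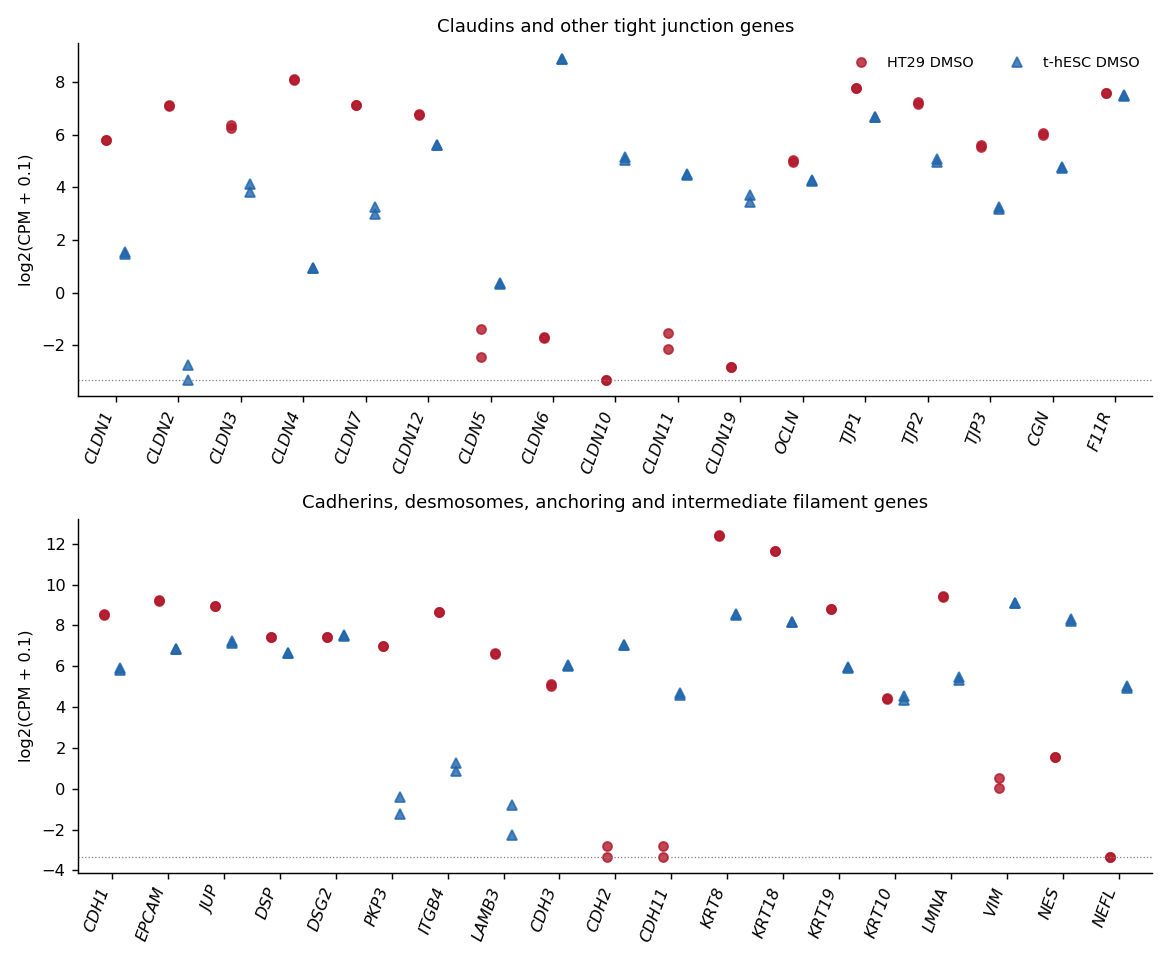
Each point is 1 DMSO library of HT29 (red circles) or t-hESC (blue triangles), on the scale log2 of CPM plus 0.1, with the dotted line at 0 counts. CLDN2 and CLDN4 are high in HT29 and CLDN6 and CLDN10 in t-hESC, CDH1 is present in both lines and CDH2 in t-hESC, and F11R, DSG2 and KRT10 lie at nearly the same height in both.

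Cadherins and filaments followed a similar split. Of 26 cadherin, desmosome and anchoring genes 25 were tested, 13 were 4-fold or more higher in HT29 and 4 in t-hESC. CDH1, E-cadherin, was expressed in both lines, at 376 and 358 CPM in HT29 and 55.2 and 59.3 CPM in t-hESC (2.68 ± 0.040). CDH2, N-cadherin, was at 0.0412 and 0 CPM in HT29 and 129.7 and 133 CPM in t-hESC, a ratio of 6281-fold with a counting interval of 1127 to 248116. EPCAM, an adhesion protein of epithelia and of embryonic stem cells, was at 597 and 586 CPM in HT29 and 116 and 116 CPM in t-hESC (2.35 ± 0.034). ITGB4, the integrin of hemidesmosomes, was at 397 and 400.0 CPM in HT29 and 1.70 and 2.31 CPM in t-hESC (7.61 ± 0.071). The desmosomal cadherin DSG2 was close in level between the lines, at 170.5 and 169.8 CPM and 182 and 176 CPM (-0.07 ± 0.035).

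Among intermediate filament genes 10 of 20 tested were 4-fold or more higher in HT29 and 6 in t-hESC. KRT8 and KRT18, the paired keratins of simple epithelia, were present in both lines. KRT8 was at 5376 and 5457 CPM in HT29 and 361 and 371 CPM in t-hESC (3.89 ± 0.031), and KRT18 at 3229.6 and 3209 CPM and 288 and 283 CPM (3.49 ± 0.031). Both have many processed copies in the genome, so their reads may be shared. VIM, vimentin of mesenchymal and embryonic cells, was at 1.36 and 0.938 CPM in HT29 and 547 and 553 CPM in t-hESC (-8.89 ± 0.069). NES, nestin of neural progenitors, was at 2.84 and 2.82 CPM and 315 and 300.2 CPM (-6.76 ± 0.065), and NEFL, a neurofilament chain, had 0 counts in HT29 and 32.2 and 30.8 CPM in t-hESC. LMNA, lamin A/C of the nuclear envelope, was higher in HT29, at 669 and 683 CPM against 39.5 and 43.7 CPM (4.02 ± 0.040). All 18 genes of epithelial splicing and polarity were tested, 10 were 4-fold or more higher in HT29 and none in t-hESC, and the median was 2.23. ESRP1, an epithelial splicing factor, was at 256 and 249 CPM in HT29 and 72.1 and 69.4 CPM in t-hESC (1.84 ± 0.039). The 2 groups did not overlap for it, as for 91.7% of all tested genes, and both lines expressed it.

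Wnt signalling genes were divided between the lines. Of 24 Wnt target and intestinal stem cell genes 23 were tested, and 8 were 4-fold or more higher in each line. RNF43, an E3 ligase that removes Wnt receptors, was at 169.8 and 171 CPM in HT29 and 0.714 and 1.46 CPM in t-hESC (7.25 ± 0.091). AXIN2, a feedback target of the pathway, was higher in HT29 by less, at 58.4 and 55.1 CPM against 25.6 and 24.3 CPM (1.19 ± 0.058). LGR5, the crypt stem cell receptor, was at 25.1 and 24.4 CPM in HT29 and 1.26 and 1.04 CPM in t-hESC (4.43 ± 0.15), while OLFM4, another crypt base gene, was at 0.0412 and 0 CPM in HT29 and 0 in t-hESC. MSI1, an RNA-binding protein of neural and gut stem cells, had 0 counts in HT29 and 60.0 and 57.0 CPM in t-hESC, at least 929-fold higher. Secreted Wnt antagonists of the SFRP family were among the highest line-specific transcripts of t-hESC. SFRP1 was at 0.0823 and 0.171 CPM in HT29 and 959 and 951 CPM in t-hESC (-12.82 ± 0.088), and SFRP2 at 0.123 and 0.0853 CPM and 838 and 839.9 CPM (-12.88 ± 0.088).

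Growth factor genes were divided between the lines. Of 32 receptor and ligand genes 30 were tested, 11 were 4-fold or more higher in HT29 and 7 in t-hESC. Over all tested genes these shares were 12.2% and 21.1%, and the t-hESC share of this list was near the latter. Ligands of the EGF receptor lay on both sides. AREG, amphiregulin, was at 172 and 170.1 CPM in HT29 and 0.11 and 0.282 CPM in t-hESC (9.67 ± 0.12), and EREG, epiregulin, at 135 and 134 CPM and 0.0549 and 0.282 CPM (9.51 ± 0.13). EGF itself was higher in t-hESC, at 0.535 and 0.555 CPM in HT29 and 5.16 and 5.03 CPM in t-hESC (-3.21 ± 0.25). The receptor gene EGFR was at 85.3 and 80.5 CPM in HT29 and 10.2 and 9.08 CPM in t-hESC (3.11 ± 0.071), and MET, the HGF receptor, at 466 and 464 CPM and 7.58 and 8.70 CPM (5.83 ± 0.054). FGFR1 was at 0.165 and 0.0853 CPM in HT29 and 673 and 676 CPM in t-hESC (-12.32 ± 0.093), and its ligand FGF2, which supports human pluripotent cells in culture, at 2.26 and 2.09 CPM and 51.2 and 55.1 CPM (-4.61 ± 0.10). The receptor gene KIT was at 0.0412 and 0 CPM in HT29 and 23.9 and 25.7 CPM in t-hESC, and its ligand gene KITLG was the reverse, at 169 and 175 CPM and 6.59 and 6.78 CPM (4.68 ± 0.064). IGF2R was close in level, at 121 and 124 CPM in HT29 and 115 and 119 CPM in t-hESC (0.06 ± 0.041), and did not pass the test.

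TGF-beta family genes differed member by member. Of 31 genes 27 were tested, with 5 at 4-fold or more higher in HT29 and 9 in t-hESC. BMP4 was at 299 and 293 CPM in HT29 and 1.54 and 1.74 CPM in t-hESC (7.48 ± 0.075), and BMP7 had the opposite order, at 0 and 0.0427 CPM and 38.8 and 37.3 CPM. TGFBR2, the type II TGF-beta receptor, was at 146 and 143 CPM in HT29 and 7.36 and 7.86 CPM in t-hESC (4.24 ± 0.064). SMAD4, the shared mediator of the pathway, was lower in HT29, at 12.3 and 10.4 CPM against 64.4 and 65.4 CPM (-2.52 ± 0.067), and SMAD3 was higher, at 178 and 176 CPM against 27.7 and 29.9 CPM (2.62 ± 0.048). ID1, a BMP target, was close in level, at 68.9 and 69.2 CPM in HT29 and 69.4 and 65.8 CPM in t-hESC (0.03 ± 0.046), and did not pass the test. Its relative ID3 was at 0.165 and 0.213 CPM in HT29 and 95.6 and 99.2 CPM in t-hESC (-8.97 ± 0.13). FST, follistatin, which binds activins, had 0 counts in HT29 and 40.1 and 39.1 CPM in t-hESC.

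Genes of histone H3 lysine 9 methylation differed little, although most were called. All 27 were tested, 10 were higher in HT29 and 14 in t-hESC, 1 passed 4-fold, and 6 were close in level. Over all tested genes 38.9% were called higher in HT29, 45.6% in t-hESC, and 33.2% passed 4-fold. EHMT2, the G9a methyltransferase, was at 104 and 104 CPM in HT29 and 207 and 203 CPM in t-hESC (-0.98 ± 0.038), and its partner EHMT1 at 84.8 and 86.8 CPM and 147 and 141 CPM (-0.75 ± 0.040). TRIM28, the KAP1 corepressor, was at 501 and 486 CPM in HT29 and 1029.5 and 1054 CPM in t-hESC (-1.08 ± 0.030). SETDB1, which works with it, differed less, at 49.2 and 47.9 CPM and 57.2 and 58.3 CPM (-0.25 ± 0.051). SUV39H2 was close in level, at 29.9 and 31.6 CPM in HT29 and 34.3 and 34.2 CPM in t-hESC (-0.15 ± 0.063). The heterochromatin proteins diverged in sign, with CBX5 at 128 and 125 CPM in HT29 and 275 and 283 CPM in t-hESC (-1.14 ± 0.036) and CBX3 at 470.4 and 467 CPM and 226 and 218 CPM (1.08 ± 0.038). The member past 4-fold was KDM4D, a demethylase, at 0.453 and 0.683 CPM in HT29 and 5.27 and 5.27 CPM in t-hESC (-3.21 ± 0.25).

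DNA methylation and Polycomb genes showed larger exchanges between relatives. Of 30 genes 29 were tested, 5 were 4-fold or more higher in HT29 and 6 in t-hESC, and 5 were close in level. The 4-fold shares over all tested genes were 12.2% and 21.1%, and the t-hESC share here was near the latter. TET1, which oxidises methylated DNA, was at 0.329 and 0.512 CPM in HT29 and 56.2 and 60.7 CPM in t-hESC (-7.11 ± 0.14), and its relative TET2 had the opposite order, at 23.8 and 24.0 CPM and 5.65 and 5.60 CPM (2.09 ± 0.099). DNMT3A was at 21.4 and 21.2 CPM in HT29 and 129 and 126 CPM in t-hESC (-2.58 ± 0.054). In Polycomb complex 1, BMI1 was at 61.3 and 61.3 CPM in HT29 and 2.42 and 2.87 CPM in t-hESC (4.52 ± 0.095), and PHC1 at 48.0 and 50.8 CPM and 752 and 743 CPM (-3.92 ± 0.038). CBX8 was higher in HT29 (2.84) and CBX2 in t-hESC (-2.54). In Polycomb complex 2, SUZ12 was at 209.9 and 215 CPM in HT29 and 41.9 and 42.7 CPM in t-hESC (2.33 ± 0.044), and the accessory subunit JARID2 at 25.5 and 25.2 CPM and 279 and 272 CPM (-3.44 ± 0.048). The catalytic subunit EZH2 was closer, at 108 and 103 CPM and 74.9 and 73.1 CPM (0.51 ± 0.044).

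Cell cycle genes were near each other on the whole. All 32 genes of G2/M and mitosis were tested, 6 were higher in HT29 and 21 in t-hESC, none passed 4-fold, 10 were close in level and the median was -0.41. The shares over all tested genes were 38.9% higher in HT29, 45.6% in t-hESC and 33.2% past 4-fold. TOP2A, a topoisomerase of dividing cells, was at 636 and 645 CPM in HT29 and 709 and 694 CPM in t-hESC (-0.13 ± 0.029), and MKI67 was higher in HT29, at 337 and 329 CPM against 132 and 130.1 CPM (edgeR adjusted p = 2.0e-43). Of 35 genes of G1/S and replication all were tested and 3 passed 4-fold. Of those, CDKN2A, the p16 and p14ARF locus, was at 92.3 and 86.8 CPM in HT29 and 0 and 0.141 CPM in t-hESC, a ratio of 1179-fold with a counting interval of 403 to 5718. CCND2, cyclin D2, had 0 counts in HT29 and 73.7 and 75.8 CPM in t-hESC, at least 1190.5-fold higher, while CCND1 was nearly level, at 164 and 164 CPM and 141 and 141 CPM (0.22 ± 0.036). Outside these lists, 25 p53 target genes were all tested, with 5 called higher in HT29 and 17 in t-hESC. Of the 25, 4 passed 4-fold, all higher in t-hESC. Among them CDKN1A, the p21 inhibitor of cyclin-dependent kinases, was at 9.59 and 10.8 CPM in HT29 and 59.0 and 61.2 CPM in t-hESC (-2.56 ± 0.068), and PMAIP1, the pro-apoptotic protein NOXA, at 7.62 and 8.06 CPM and 127 and 125 CPM (-4.0 ± 0.064).

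Antigen presentation and interferon genes were divided. All 29 were tested, 9 were 4-fold or more higher in HT29 and 7 in t-hESC. Among all tested genes 12.2% and 21.1% were, so the t-hESC share here was near that of all genes. B2M, the light chain of class I molecules, was at 462 and 455 CPM in HT29 and 94.0 and 101 CPM in t-hESC (2.23 ± 0.039). The heavy chain gene HLA-B went the other way, at 13.1 and 13.5 CPM and 146 and 151 CPM (-3.48 ± 0.054), as did TAP1, a peptide transporter, at 4.40 and 4.01 CPM and 18.2 and 18.4 CPM (-2.12 ± 0.11). HLA genes resemble each other, so their reads may be shared. CGAS, the sensor of cytosolic DNA, was at 19.4 and 19.7 CPM in HT29 and 0.0549 and 0.0941 CPM in t-hESC, and its partner STING1 at 13.3 and 15.7 CPM and 0.494 and 0.706 CPM (4.56 ± 0.19). IFITM1, a membrane restriction factor, was at 0.165 and 0.0853 CPM in HT29 and 76.1 and 74.0 CPM in t-hESC (-9.15 ± 0.15).

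The most abundant transcripts among those at least 32-fold apart name each line in brief. In HT29 they were LYZ, ANXA2, S100A6, MAL2, SLC12A2, ALDH1A1, LGALS4, TSPAN8, GPX2, CD44, GCNT3, AHNAK, MET and EHF, with ENSG00000257764, an unnamed gene that overlaps LYZ and cannot be told apart from it without strand. ANXA2, a calcium-dependent membrane protein, was at 1848 and 1801 CPM in HT29 and 44.0 and 46.5 CPM in t-hESC (5.33 ± 0.038). S100A6 was at 1363 and 1357 CPM and 1.04 and 2.54 CPM (9.52 ± 0.068). SLC12A2, the chloride importer of secretory epithelia, was at 858 and 864 CPM and 13.5 and 13.4 CPM (6.0 ± 0.047), and ALDH1A1 at 682 and 677 CPM and 2.42 and 1.88 CPM (8.31 ± 0.066). In t-hESC they were POU5F1, LIN28A, SFRP1, DNMT3B, SFRP2, DPPA4, SLC2A3, SNRPN, DPYSL3, FADS2, FGFR1, TUBA1A, THY1, MDK and L1TD1. SLC2A3, the GLUT3 glucose transporter, was at 0.165 and 0.0427 CPM in HT29 and 774 and 769 CPM in t-hESC (-12.76 ± 0.092). SNRPN, an imprinted splicing gene, was at 0.0412 and 0 CPM and 722 and 734 CPM, so 1 count stood for it in the HT29 group. Genes 4-fold higher in HT29 gave 13.2% of its CPM, and genes 4-fold higher in t-hESC gave 11.6% of its own.

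Some genes were restricted to 1 line at this depth. At 10 CPM or more in one line and 0 counts in both DMSO libraries of the other, there were 50 genes in HT29 and 295 in t-hESC. Allowing 1 to 3 counts added 83 and 302. In HT29 they included POF1B, an actin-binding protein, at 210.2 and 218 CPM, and CTSE, cathepsin E, at 69.1 and 71.0 CPM. POF1B was at least 2818-fold higher in HT29. In t-hESC they included TRIM71, given above, THY1-AS1 at 188 and 185 CPM, CRABP1, a retinoic acid binding protein, at 171 and 171 CPM, and ALPL, the alkaline phosphatase of pluripotent cells, at 162 and 156 CPM. THY1-AS1 lies antisense to THY1, and the library kit does not mark strand, so reads of the 2 genes cannot be told apart.

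At the other end, 9062 genes reached 10 CPM in both lines, with a median difference of 0.076. Of these, 1738 (19.2%) were close in level by the interval given above. PSMB2, a proteasome subunit, was one, at 194 and 188 CPM in HT29 and 194 and 193 CPM in t-hESC (-0.02 ± 0.036), and the demethylase KDM3A was another, at 65.8 and 67.9 CPM and 68.4 and 63.8 CPM (0.02 ± 0.049). Both missed the test.

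The difference under VXN came from other libraries of the same lines, although both comparisons share 1 fit, with its filter, scaling and spread. Fitted alone, the 4 DMSO libraries gave 18375 calls among 21203 tested genes. Under VXN, in the fit of all 10 libraries, edgeR's quasi-likelihood test called 19426 of 22495 genes (86.4%), 9197 (40.9%) higher in HT29 and 10229 (45.5%) in t-hESC. At 4-fold or more there were 8126 genes (36.1%), 3168 (14.1%) higher in HT29 and 4958 (22%) in t-hESC. Of the 2740 genes 4-fold higher in HT29 under DMSO, 2289 were also 4-fold higher under VXN, which is 83.5% of the DMSO list and 72.3% of the VXN list. Of the 4739 genes 4-fold higher in t-hESC, 4225 were, which is 89.2% and 85.2%. Of those DMSO lists 7 and 26 genes were called the other way under VXN. Of all 18996 genes called under DMSO, 16392 were called the same way under VXN and 969 the other way. POU5F1 differed by -9.70 ± 0.064 under VXN, SOX2 by -9.84 ± 0.11, HNF4A by 12.27 ± 0.32 and KRT20 by 11.93 ± 0.099, each of the same sign as under DMSO. The authors' deposited table for VXN in HT29 against VXN in t-hESC calls 17946 genes, of which 16711 were tested here and 16665 were called the same way under VXN. It compares the same VXN groups, so this match sets methods side by side and not other samples. Under DMSO 14804 of its genes were called the same way.

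A smaller set changed its line difference with the compound. edgeR's test of the change against a 2-fold threshold called 1471 genes (6.54%), with 773 (3.44%) moving upward in HT29 relative to t-hESC and 698 (3.1%) downward. Among the largest, IHH, the Indian hedgehog ligand, was at 16.1 and 16.1 CPM in HT29 under DMSO and 2.71 and 2.68 CPM under VXN, while t-hESC had 0 counts under DMSO and 0.179 and 0 CPM under VXN. NOX1, the colon NADPH oxidase, was at 18.9 and 16.6 CPM and then 0.874 and 0.557 CPM in HT29, and at 0.11 and 0.141 CPM and 0.179 and 0.282 CPM in t-hESC (change -5.44 ± 0.90). In the other direction, RSAD2, an interferon-induced antiviral gene, was at 0 and 0.0427 CPM in HT29 under DMSO and 15.9 and 13.5 CPM under VXN, while t-hESC was at 0.275 and 0.518 CPM and 0.836 and 0.338 CPM (change 8.56 ± 0.90). EPSTI1, also induced by interferon, was at 0 and 0.0427 CPM and 3.98 and 4.36 CPM in HT29 and at 0.494 and 0.612 CPM and 0.358 and 0.0564 CPM in t-hESC (change 8.67 ± 0.90). NPTX1, a neuronal pentraxin, had 0 counts in HT29 under DMSO and 0.262 and 0.101 CPM under VXN, and t-hESC was at 15.5 and 15.1 CPM and 1.37 and 1.41 CPM. Each of these 5 genes had at least 1 group near 0 counts. The proliferation gene MKI67, higher in HT29 under DMSO, differed by -1.16 ± 0.042 under VXN (change -2.51 ± 0.054).

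**Figure D4:**
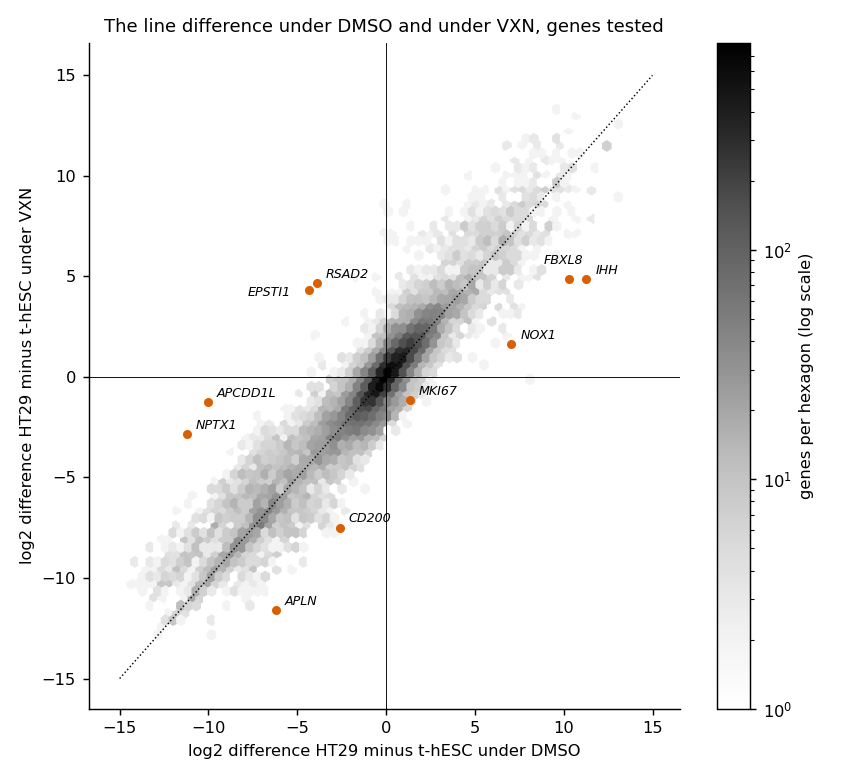
Each hexagon holds tested genes placed by their log2 difference HT29 minus t-hESC under DMSO (horizontal) and under VXN (vertical), shaded by the number of genes on a log scale, with the dotted line marking equal differences. Most genes lie along that line, and the orange points are genes with a changed difference, such as NPTX1 and RSAD2 above it and IHH, NOX1 and CD200 below it.

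Transcripts restricted to t-hESC under DMSO appeared at trace levels in HT29 under VXN. Of the 295 such genes 88 had a count in both HT29 VXN libraries, at a median over the 295 of 0.0966% of the t-hESC VXN level. In the other direction 5 of 50 genes had a count in both t-hESC VXN libraries, with a median of 0%. Over 137 genes at 100 CPM or more in t-hESC and 32-fold or more higher there, the median HT29 level was 0.0616% of that in t-hESC under DMSO and 0.166% under VXN. Over the 95 HT29 genes described above, the median t-hESC level was 0.322% of that in HT29 under DMSO and 0.352% under VXN. Each of these gene sets was chosen by its low level in the other line under DMSO. That choice by itself favours a higher level there under VXN, and genes chosen at 0 counts could not fall. The part of such traces in the changes of genes high in t-hESC was not tested. LIN28A, for instance, was at 0.350 and 0.861 CPM in HT29 under VXN and 895 and 881 CPM in t-hESC (change 4.68 ± 0.79), beside 1 count in the HT29 group under DMSO.

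Differences were spread over all chromosomes but not evenly. Among genes with a position at 10 CPM or more in both lines, the median over all was 0.082. Chromosome 20 stood at 0.49, chromosome 15 at 0.46, chromosome 11 at 0.42, chromosome 13 at 0.39 and chromosome 7 at 0.34, and 74.3% of such genes on chromosome 20 were higher in HT29. On the negative side were chromosomes 22, 21 and 14, each at -0.36, and chromosome 19 at -0.32. The X chromosome held the highest share of genes 4-fold higher in t-hESC, 36.4% of its tested genes against 21.4% over all genes with a position. The order was close under VXN, with chromosome 20 at 0.61 and chromosome 14 at -0.37. Windows of 20000000 bases, a size chosen after seeing the data, varied within chromosomes. The first window of chromosome 19 was at -0.65 and its other 2 at 0.19 and 0.050. Over the 139 windows with at least 20 such genes the medians ran from -1.28 to 1.86, and both ends lay on chromosome 8, whose own median was -0.013. DNA copy number was not measured in these files, and its part in these medians was not tested.

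**Figure D5:**
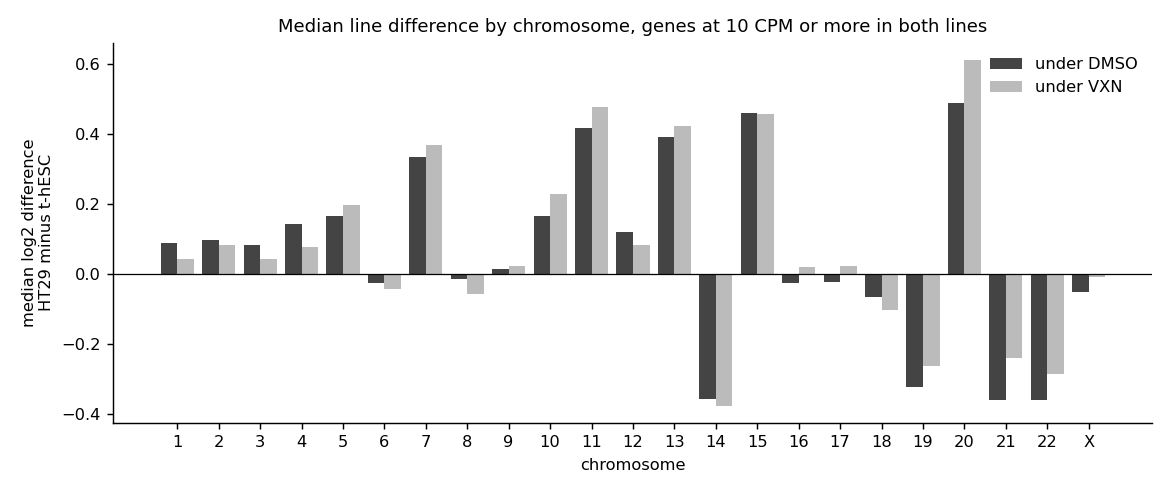
Bars give the median log2 difference HT29 minus t-hESC per chromosome under DMSO (dark) and under VXN (light), over genes at 10 CPM or more in both lines. Chromosome 20 has the highest bars, at 0.49 and 0.61, and chromosomes 14, 19, 21 and 22 are below 0 in both.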

How the data were processed

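Total RNA was made into TruSeq RNA v2 libraries, per the labels' protocols; this kit keeps no strand information. STAR, with fastp 0.20.1 and FastQC 0.11.9 for read quality, DESeq2 1.34.0 and the GRCh38 build stand in the submitters' processing notes. The read counter and annotation are not given in these sources. The authors deposited raw counts per gene, and tables of log2 fold changes and adjusted p-values for their own comparisons. The deposited counts were used for every test. The 1181 rows of repeats, 3.52% to 4.31% of the table in the DMSO libraries, were left out, as were 4 further columns that match no sample.

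The 22495 genes that passed edgeR's minimum count filter were scaled by the trimmed mean of M-values and fitted over all 10 libraries in one quasi-likelihood model (R 4.3.3, edgeR 4.0.16, limma 3.58.1) with 5 residual degrees of freedom. P-values were adjusted over all tested genes by Benjamini and Hochberg, and calls are at 0.05. The change between VXN and DMSO was tested against a 2-fold threshold with glmTreat. Levels are CPM on the scaled library sizes. The test was checked on simulated counts. Counts of 0 in both libraries of a group were bounded at 3 counts over the group's 2 libraries together. For 1 to 3 counts the ratio has an exact 95% interval for counting error.

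Members and gene lists were chosen with earlier results of these data known. Genes were named by rule: the 15 most abundant per line at 32-fold or more, up to 6 called members of each list per direction with the largest differences, any member of the core pluripotency, intestinal factor, claudin and H3K9 lists, the 5 most abundant per line with 0 counts in the other, and the 5 largest changes each way. These were named for their known role after their values were seen: DCX, PAX6, COL3A1, PDGFRA, DCN, SST, GCG, NEUROG3, MUC2, VIL1, SI, FABP1, FABP2, SLC26A3, CDH17, HOXB9, HOXA10, HOXD13, CDH1, EPCAM, KRT8, KRT18, ESRP1, AXIN2, OLFM4, EGFR, IGF2R, ID1, EZH2, TOP2A, CCND1, PSMB2, NQO1, LDHB, ENO1, ACTB, VGLL1, CGA and GCM1. Symbols were found for 42131 gene ids, from a reference list of gene names or, where that had none, from the count table. Promoter windows came from RefSeq. A few named genes are not reported here. Alternatives were other scaling factors, other count filters, DESeq2 1.42.0, a replicate block, fits without one library or with the 4 DMSO libraries alone, and the threshold of each call.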

Additional observations from a re-analysis of the deposited data

Results flagged for a closer look

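For 28 genes named in the text, the difference between the lines under VXN differed from that under DMSO by more than 2-fold in edgeR's test of the change itself. Values are the change in log2 HT29 minus t-hESC, VXN minus DMSO, with its standard error. Among intestinal and secretory genes the change was -7.78 ± 1.21 for ATOH1, -4.09 ± 0.51 for LGR5, -2.24 ± 0.31 for ESPN, -3.39 ± 0.10 for SLC12A2, -5.44 ± 0.90 for NOX1 and -6.43 ± 1.82 for IHH, all downward in HT29 relative to t-hESC, and upward for KLF4 (1.96 ± 0.26). IHH had 0 counts in t-hESC under DMSO, and ATOH1 and NOX1 were near 0 there, so the sizes of their changes depend on how such counts are handled. Of the dividing-cell genes, TOP2A changed by -2.55 ± 0.045 and MKI67 by -2.51 ± 0.054.

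Signalling genes BMP4 (-2.39 ± 0.21) and KITLG (-1.43 ± 0.14) changed downward. The growth arrest and apoptosis genes CDKN1A (2.26 ± 0.082) and PMAIP1 (1.56 ± 0.094) changed upward, as did the immune genes HLA-B (1.53 ± 0.075), TAP1 (2.33 ± 0.13), IFITM1 (4.05 ± 0.38), RSAD2 (8.56 ± 0.90) and EPSTI1 (8.67 ± 0.90).

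The other genes were high in t-hESC, where the difference became smaller. They were LIN28A (4.68 ± 0.79), DPPA4 (2.56 ± 0.58), TDGF1 (2.06 ± 0.16), SFRP1 (2.53 ± 0.55), FGFR1 (2.87 ± 0.50), SPARC (4.27 ± 0.52), SNRPN (4.50 ± 0.80), THY1-AS1 (5.16 ± 1.30), AKR1B1 (4.49 ± 0.33) and NPTX1 (8.36 ± 1.28). Several of these had 0 to 3 counts in HT29 under DMSO, NPTX1 among them with 0, so the sizes of their changes depend on the handling of such counts. The traces of t-hESC transcripts in HT29 under VXN given above were higher than under DMSO, over genes chosen by their low DMSO level in HT29. The part of these traces in the changes was not tested.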

How the results depend on the processing

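With a minimum count of 50, 3024 genes were 4-fold higher in t-hESC under DMSO and 3272 under VXN, since fewer genes were tested. DESeq2 against a 2-fold threshold called 855 changes, 383 of them upward in HT29. At 5 CPM, 94 genes were restricted to HT29 and 463 to t-hESC. Without one library at a time, called genes ranged from 18302 to 18687 under DMSO (8294 to 8583 higher in HT29, 10008 to 10104 in t-hESC), and from 18894 to 19290 under VXN (8954 to 9132 and 9940 to 10159). Genes 4-fold higher in HT29 and t-hESC ranged from 2775 to 2912 and 4847 to 4976 under DMSO, and from 3212 to 3419 and 5082 to 5191 under VXN, and changes from 1300 to 1380 (653 to 720 upward, 620 to 667 downward). Lists with at least 80% of tested members called one way numbered 11, and 10 to 11 without one library. They numbered 8 with no count filter, 9 with DESeq2 and 12 with the minimum of 50.

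Upper-quartile scaling moved the median of all genes from -0.12 to -0.23 and the share of calls higher in HT29 from 46.0% to 42.4%. Under it the median of the DNA methylation and Polycomb list turned to -0.015, and F11R to -0.027, ID1 to -0.079, IGF2R to -0.047 and KDM3A to -0.095. With no count filter the primitive streak list's median turned to -1.62, with more low genes included, and PSMB2 to 0.013. With the minimum of 50, ID1 was at -0.0069 and KDM3A at -0.022. Without 1 library, ID1 ranged from -0.026 to 0.080, KDM3A from -0.052 to 0.075 and PSMB2 from -0.036 to 0.0061. DSG2, F11R and SUV39H2 lost their call in some fits, and PSMB2 gained one under upper-quartile scaling. Of 1979 values of the named genes 1952 kept direction and call.

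Samples with the same replicate number did not deviate together (correlation 0.00098 under DMSO and -0.0198 under VXN), so the numbers were not used as pairs. With the replicate number as a block, 18948 genes were called under DMSO, 19369 under VXN, and 1462 changes. Motif shares of the promoter sets were computed, but they are not compared here because too few genes had a window. Depth limits the genes with few counts, and 2 libraries a group limit all error estimates.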

Other observations

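Genes of drug and redox metabolism were mostly higher in HT29. Of 30 such genes 26 were tested, 14 were 4-fold or more higher in HT29 and 2 in t-hESC, and the median log2 difference was 2.16, beside -0.12 over all genes. GPX2, the glutathione peroxidase of gut epithelium, was at 578 and 572 CPM in HT29 and 0.165 and 0.565 CPM in t-hESC (10.54 ± 0.088). NQO1, a quinone reductase, was at 623 and 615 CPM and 78.1 and 77.3 CPM (2.99 ± 0.035), and the efflux pump gene ABCC3 at 410.0 and 407 CPM and 0.549 and 1.18 CPM (8.84 ± 0.082). The aldo-keto reductases were exchanged, with AKR1B10 at 139.6 and 139 CPM in HT29 and 0.0549 and 0.141 CPM in t-hESC (10.34 ± 0.14) and AKR1B1 at 0.165 and 0.171 CPM and 192 and 197 CPM (-10.13 ± 0.11). Each of these was separated between the lines without overlap, as were 91.7% of all tested genes.

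All 22 glycolysis genes were tested, 7 were higher in HT29 and 15 in t-hESC, and 4 passed 4-fold, with a median of -0.32. Among all tested genes 38.9% were called higher in HT29, 45.6% in t-hESC, and 33.2% passed 4-fold. These shares are the background for each list of this paragraph. LDHA, which reduces pyruvate to lactate, was at 815 and 809 CPM in HT29 and 113 and 112 CPM in t-hESC (2.85 ± 0.034), whereas LDHB was near level, at 818 and 811 CPM and 983 and 999 CPM (-0.28 ± 0.028). ENO2, the neuronal enolase, was at 35.9 and 34.0 CPM in HT29 and 199 and 205 CPM in t-hESC (-2.53 ± 0.044), beside ENO1 at 1822 and 1750.3 CPM and 2159.7 and 2149.7 CPM (-0.27 ± 0.027). None of 27 tested oxidative phosphorylation genes passed 4-fold, with 8 higher in HT29 and 17 in t-hESC. Of 34 cytosolic ribosomal protein genes 28 were higher in t-hESC and 4 in HT29, with a median of -0.40, and reads of these genes may be shared with their many processed copies. RPL39L, a ribosomal protein gene known from testis, was the member past 4-fold, with 0 counts in HT29 and 28.5 and 26.8 CPM in t-hESC, at least 439-fold higher.

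Among 28 genes often used as controls 16 were higher in HT29 and 10 in t-hESC, beside 38.9% and 45.6% of all tested genes. GAPDH was at 2651 and 2583 CPM in HT29 and 4139 and 4278 CPM in t-hESC (-0.69 ± 0.026) and ACTB at 3919 and 3858 CPM and 5304 and 5371 CPM (-0.46 ± 0.026). TFRC, the transferrin receptor gene, was at 529 and 520.1 CPM and 135 and 139 CPM (1.93 ± 0.033).

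Germline genes were low in both lines. Of 24 such genes 9 were tested, 1 was 4-fold or more higher in HT29 and 5 in t-hESC, led by TEX15 with 0 counts in HT29 and 8.07 and 7.29 CPM in t-hESC. Of 16 trophoblast genes 10 were tested, 5 were 4-fold or more higher in HT29 and 2 in t-hESC. VGLL1 was at 2.55 and 2.77 CPM in HT29, and TFAP2A at 7.16 and 6.65 CPM in HT29 and 0.165 and 0.141 CPM in t-hESC (5.45 ± 0.31). The relative TFAP2C was at 0.206 and 0.213 CPM in HT29 and 6.37 and 6.40 CPM in t-hESC (-4.89 ± 0.27), while the trophoblast products CGA and GCM1 had 0 counts in all 4 libraries.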
